A study of Cynodon dactylon with 10 samples.

Results

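A set of 64 contigs of the bermudagrass leaf transcriptome, out of 28456 in all, was lower than the control under drought, salt, submergence and heat alike. They were chosen by their measured values: a control mean under 500 RPKM, and log2((stress mean + 1)/(control mean + 1)) at or under -0.7 for each of the 4 stresses, with the values as deposited. RPKM is read density normalised to contig length and to the size of the library, so a lower RPKM is a smaller share of the library's reads. Because the same values chose the contigs, their levels against the control are given as a description, with no test. The stress means all entered the choice, so differences between stresses in these contigs are descriptions too. Tests are read only for other contigs of the same assembly units, which missed the rule. Those units were taken because they hold a member, so these tests are not independent of the rule.

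Bermudagrass (Cynodon dactylon) is a warm-season turf and forage grass. Wild-type seedlings aged 3 weeks were kept for 7 days without water (drought), with 400 mM NaCl (salt), under water (submergence) or at 42 °C (heat), and control seedlings of the same genotype were sampled at the same 7 days. Leaf RNA was sequenced in 10 libraries, 2 for each of the 5 groups. Separate plants are not stated for the libraries of a group, so the spread behind the p-values may be technical only. How the control seedlings were watered and lit is not given in the labels.

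The 4 treatments strain a leaf in different ways. Drought withholds water, and salt adds sodium and chloride ions to the water shortage. Submergence slows gas exchange and cuts off oxygen and carbon dioxide, and heat unfolds proteins. Genes for photosynthesis, cell growth and housekeeping metabolism are among those whose transcripts plants commonly lower under such strains, while protective genes are raised. The file pairs its contig identifiers with no gene names, so none of the 64 contigs can be placed in a pathway, and the leaf identity of the samples could not be checked against marker genes. In whole leaves, fewer cells of a type and less RNA per cell cannot be told apart.

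Library totals ran from 751923 to 795078 RPKM. Read totals are unknown. Ratios of low values, which move in steps of whole reads, gave relative depths of 0.791 to 1.01 with control replicate 1 taken as 1. Submerged leaves had more contigs at 1 RPKM or above, 25948 and 25946 in the 2 libraries, against 23755 to 24475 in the other 8 libraries. Trimmed-mean scaling factors were 0.957 and 0.971 for drought, 0.964 and 0.967 for salt, 1.09 and 1.10 for submergence and 1.07 and 1.08 for heat, against 0.915 and 0.908 for the control. On the values as deposited, the median log2 change of all contigs was 0.0058 under drought, 0.046 with salt, 0.33 under submergence and 0.088 under heat. The part of these library differences in the results below was not tested beyond the scalings tried.

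As a group, the 64 contigs held a small share of every library, smaller under stress than in the control. Their summed level was 0.0732% ± 0.00125 of all RPKM under drought, 0.174% ± 0.00202 with salt, 0.0352% ± 0.000412 under submergence and 0.0590% ± 0.000207 under heat, against 0.328% ± 0.000830 in the control (SD, n = 2 each). The pair of most abundant members weighed heavily in salt and control leaves. Without them the share was 0.0714% under drought, 0.116% with salt, 0.0351% under submergence and 0.0590% under heat, against 0.229% in the control.

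A typical member was a contig of moderate abundance that kept about 50% of its control level under salt and less under the other stresses. The median level of the 64 was 3.59 RPKM under drought, 7.67 with salt, 1.89 under submergence and 1.70 under heat, against 16.9 RPKM in the control. The median share of the control level that was kept was 22.7% under drought, 50.1% with salt, 14.5% under submergence and 16.9% under heat. Control levels ran from 0.895 to 456 RPKM, with quartiles at 6.81 and 33.6 RPKM. The median of all 28456 contigs in the control was 8.13 RPKM.

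On the log2 scale of the rule, the median change was -1.68 under drought, -0.89 with salt, -2.21 under submergence and -2.10 under heat. The range was -5.71 to -0.71 under drought, -1.80 to -0.70 under salt, -8.28 to -0.72 under submergence and -8.84 to -0.71 under heat. Salt gave the smallest change in 48 contigs, drought and submergence in 6 each and heat in 4. Heat gave the largest change in 27 contigs, submergence in 23 and drought in 13. In the lowest contig by control level, salt, submergence and heat tied at 0 RPKM. That contig counts under drought for the smallest change, on 0.02 and 0 RPKM. Only 11 of the 64 had a change of -1 or beyond under all 4 stresses.

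**Figure D1:**
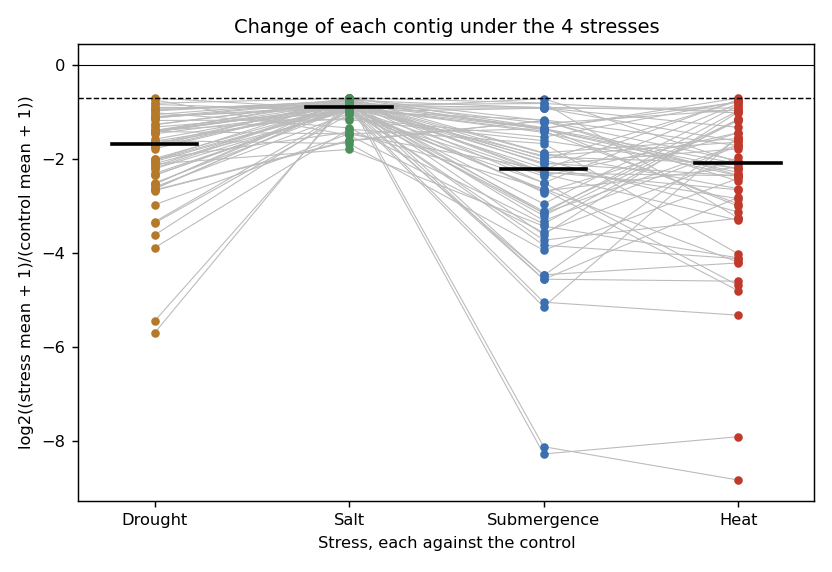
Points are the 64 contigs under each stress, joined by grey lines; the vertical axis is log2((stress mean + 1)/(control mean + 1)), the dashed line is the limit of -0.7 and black bars are medians. The salt points are packed between -1.80 and -0.70, while the other stresses spread to -5.71 under drought, -8.28 under submergence and -8.84 under heat.

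Salt was the stress under which the fewest contigs passed the limit. A control mean under 500 RPKM with a change of -0.7 or beyond was met by 3162 contigs under drought, 258 with salt, 4464 under submergence and 4677 under heat. Another 970 contigs met it under drought, submergence and heat but not under salt. These 970 had a median control level of 19.5 RPKM and median changes of -1.22 under drought, -0.15 with salt, -1.63 under submergence and -2.00 under heat. Their salt values had no gap at the limit, with 48 of the 970 between -0.7 and -0.6, while 278 were above 0. The 3 members nearest the limit had a smallest change of -0.7021 to -0.7043, and the 3 contigs nearest to it on the other side had -0.6986 to -0.6960, all of them under salt. The ceiling of 500 RPKM left out 2 further contigs.

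In all 64 contigs, each of the 8 stress libraries was below both control libraries. Among all 28456 contigs, 6.1% had this order, and the share with both stress libraries below both control libraries was 32.8% for drought, 20.4% for salt, 28.8% for submergence and 32.3% for heat. The rule all but fixes this order in the members, so nothing is read from it. The 29 members of at least 20 RPKM in the control had a median absolute log2 ratio between replicates of 0.11 under drought, 0.091 with salt, 0.13 under submergence and 0.14 under heat, against 0.051 in the control. Larger differences were counted over all 64 members. Replicates differed more than 2-fold in 5 members under drought, 2 with salt, 10 under submergence and 12 under heat, against 3 in the control. Some of these had high control levels and stress libraries near 0. The second by control level, for example, had 0 and 0.58 RPKM under heat.

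The most abundant member, comp48974_c2_seq1, was all but lost under 2 of the stresses. It had 7.59 and 7.93 RPKM under drought, 283 and 277 RPKM under salt, 1.07 and 0.20 RPKM under submergence and 0 in both heat libraries, against 441 and 472 RPKM in the control. Salt-treated leaves thus kept a level far above the other stressed leaves, and the 3 low groups did not overlap with each other or with salt. In the limma fit across all 26884 contigs tested, which uses log2(scaled RPKM + 1), the difference between drought and salt was -5.01 ± 0.19 (SE). The difference of submergence from drought was -2.57 ± 0.19 (SE) and that of heat from drought -3.18 ± 0.19 (SE). That of heat from submergence was -0.61 ± 0.19 (SE), and it was -0.24 without submergence replicate 1 and -0.98 without replicate 2. The second most abundant member belongs to the same subcomponent, the assembly unit whose contigs share all of their identifier but the last part, and the file holds no other contig of that unit. It had 6.59 and 5.63 RPKM under drought, 183 and 177 RPKM under salt, 0 in both submergence libraries and 0 and 0.58 RPKM under heat, against 300.5 and 321 RPKM in the control. Reads may be split between contigs of one subcomponent, so these 2 are not separate observations.

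The next 3 members by control level were each lowest under submergence and kept much more under heat. The third had 66.8 and 66.9 RPKM under drought, 135 and 126.5 RPKM under salt, 16.25 and 19.2 RPKM under submergence and 108 and 119 RPKM under heat, against 222 and 235 RPKM in the control. Drought lay between heat and submergence, and no groups overlapped. The fourth had 88.45 and 93.05 RPKM under drought, 82.3 and 82.0 RPKM under salt, 3.65 and 3.61 RPKM under submergence and 56.0 and 55.6 RPKM under heat, against 162 and 166 RPKM in the control. Here salt was below drought, and submergence held 2.22% of the control level. The fifth had 33.4 and 39.2 RPKM under drought, 90.5 and 92.9 RPKM under salt, 6.42 and 5.18 RPKM under submergence and 50.4 and 50.9 RPKM under heat, against 158 and 145 RPKM in the control. In the limma fit, heat was above submergence by log2 differences of 2.64 ± 0.08, 3.62 ± 0.03 and 2.94 ± 0.09 in these 3 contigs (SE).

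Of the members ranked 6 to 10, 3 were lowest under heat and 2 under submergence. The sixth had 46.2 and 42.1 RPKM under drought, 59.4 and 55.7 RPKM under salt, 35.8 and 38.6 RPKM under submergence and 19.1 and 19.4 RPKM under heat, against 96.9 and 99.5 RPKM in the control. Its heat libraries were the lowest, and no groups overlapped. The seventh had 35.6 and 37.45 RPKM under drought, 44.8 and 47.0 RPKM under salt, 15.5 and 18.4 RPKM under submergence and 22.7 and 20.7 RPKM under heat, against 77.5 and 77.2 RPKM in the control. The eighth had 12.9 and 12.5 RPKM under drought, 37.3 and 35.96 RPKM under salt, 1.33 and 2.56 RPKM under submergence and 9.46 and 8.29 RPKM under heat, against 69.15 and 68.4 RPKM in the control. In the seventh and eighth, submergence was the lowest group, with no overlap. The ninth had 32.1 and 32.7 RPKM under drought, 35.0 and 35.1 RPKM under salt, 25.2 and 24.5 RPKM under submergence and 10.25 and 8.94 RPKM under heat, against 58.35 and 57.6 RPKM in the control. The tenth had 13.5 and 12.2 RPKM under drought, 19.04 and 20.1 RPKM under salt, 7.98 and 7.87 RPKM under submergence and 2.25 and 1.78 RPKM under heat, against 55.9 and 53.1 RPKM in the control. In both of these, heat was the lowest group and salt the highest of the stresses.

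The evenest change among members of at least 10 RPKM in the control belonged to comp50833_c10_seq1, whose 4 log2 changes spanned 0.69. It had 5.47 and 4.86 RPKM under drought, 7.95 and 7.46 RPKM under salt, 5.29 and 5.37 RPKM under submergence and 8.46 and 9.42 RPKM under heat, against 20.7 and 9.81 RPKM in the control. Its control libraries differed more than 2-fold, and the lower of them was close to the heat libraries and not far above the salt libraries. Its membership thus leaned on the higher control library. In the limma fit its log2 differences from the control, -0.90 under salt and -0.84 under heat, were short of 2-fold. The small differences between stresses in this contig are what it was picked for.

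On the rule's log2 scale, which gives more weight to abundant contigs, and apart from the 2 most abundant members, the most negative change under heat was in the twelfth by control level, with 7.49 and 9.05 RPKM under drought, 19.85 and 22.7 RPKM under salt, 0.31 and 0.28 RPKM under submergence and 0.14 and 0 RPKM under heat, against 44.0 and 40.04 RPKM in the control. Under submergence it was in the fourth on that scale, although 0.70% of the control level was left there in the twelfth and 2.22% in the fourth. Under drought it was in the seventeenth, with 1.87 and 0.70 RPKM under drought, 11.5 and 12.8 RPKM under salt, 10.7 and 8.52 RPKM under submergence and 0.53 and 1.65 RPKM under heat, against 33.7 and 32.4 RPKM in the control. Drought and heat overlapped in that contig, and salt and submergence stood apart from both. The most negative change under salt was in the eleventh, with 8.28 and 10.2 RPKM under drought, 10.6 and 12.8 RPKM under salt, 3.38 and 2.81 RPKM under submergence and 1.21 and 1.92 RPKM under heat, against 45.1 and 41.4 RPKM in the control. Drought and salt were the nearest pair there on the rule's log2 scale, and no groups overlapped.

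Near-complete loss was mostly seen under submergence and heat. The level was under 5% of the control in 7 members under drought, 1 with salt, 18 under submergence and 19 under heat. Both libraries were listed at 0 in 1 member under drought, 1 with salt, 4 under submergence and 4 under heat, and no member was listed at 0 in a control library. The salt case was also 1 of those under submergence and under heat, and had only 1.69 and 0.10 RPKM in the control. The drought case had unsteady control libraries, at 3.22 and 7.57 RPKM. At least 50% of the control level was kept by 5 members under drought, 33 with salt, 1 under submergence and 5 under heat.

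Several members rested on unsteady libraries. The contig ranked 42nd had 6.56 and 7.71 RPKM under drought, 10.3 and 1.46 RPKM under salt, 0 in both submergence libraries and 0.76 and 0 RPKM under heat, against 11.3 and 13.3 RPKM in the control. Its first salt library lay near the control and the second far below it. The lowest contig had 0.02 and 0 RPKM under drought and 0 in the 6 other stress libraries, against 1.69 and 0.10 RPKM in the control. It was the 1 member of 64 that did not reach 1 RPKM in at least 2 libraries, and so was not tested. Of the 63 that did, 1 reached it through the control alone. Leaving out 1 library at a time gave 61 to 84 contigs by the same rule, and between 54 and 64 of the original 64 were among them, 54 without control replicate 1 or without salt replicate 2.

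The same limma fit gave the differences between stresses, with a call at an adjusted p under 0.05 and at least 2-fold. The rule used every stress mean and held each member low under all 4, so these calls describe the members and the percentages of all contigs, which were not held low, are printed as background only. Against the control itself, 57 of 63 members were called lower under drought (8.04% of all contigs tested), 27 under salt (0.32% of all), 61 under submergence (16% of all) and 60 under heat (15.8% of all). Without scaling the salt count was 15, and the share of all contigs was not counted there.

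Submergence was lower than salt in 40 of 63 members, or 63.5% (15.5% of all contigs tested). Heat was lower than salt in 35 of 63, or 55.6% (15.4% of all), and drought in 27 of 63, or 42.9% (6.88% of all). Across these 3 comparisons, 14 members were lower than salt in all, 21 in exactly 2, 18 in exactly 1 and 10 in none. The same joint counts were not made for all contigs, so these are a description only. Salt values lay close under the limit, with quartiles of -0.99 and -0.78 on the rule's scale. Limma called no member higher than salt under submergence (15.6% of all contigs), heat (11.2%) or drought (5.91%), and 0, 1 and 2 members were higher at an unadjusted p under 0.05 and any size, in that order. With each other stress held at or under -0.7 as well, the rule left little room for a call in that direction.

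Submergence was lower than drought in 25 of 63 members, or 39.7% (15.7% of all contigs tested), and higher in 5, or 7.94% (17.9% of all). Heat was lower than drought in 23 of 63, or 36.5% (11.8% of all), and higher in 2, or 3.17% (8.08% of all). The median log2 difference over the 63 was -0.67 for submergence against drought and -0.40 for heat against drought. The quartiles on the rule's scale were -2.35 and -1.25 under drought, -3.24 and -1.37 under submergence and -2.97 and -1.30 under heat.

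**Figure D2:**
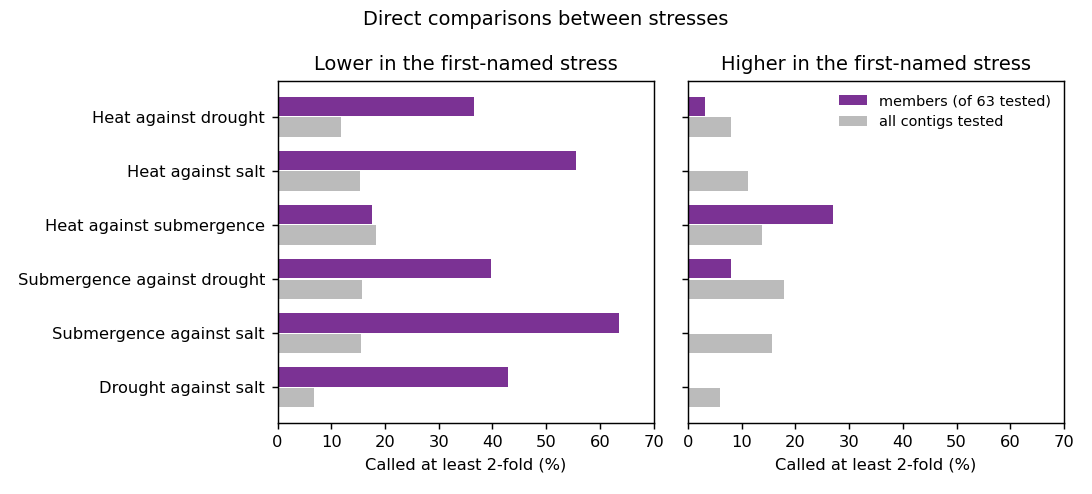
Bars give the percentage called at least 2-fold by limma at an adjusted p under 0.05 in each pair of stresses, lower on the left and higher on the right, for the 63 members tested and for all contigs tested. The longest member bar is 63.5%, for submergence lower than salt; the 2 kinds of bar are not alike, since members were held low under every stress by the rule and all contigs were not.

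Between heat and submergence, 35 of 63 members were called in neither direction. Heat was higher than submergence in 17, or 27% (13.8% of all contigs tested), and lower in 11, or 17.5% (18.4% of all). The 17 with the lower level under submergence kept a median of 28.2% of the control level under drought, 52.6% with salt, 4.19% under submergence and 41.1% under heat. The 11 with the lower level under heat kept a median of 22% under drought, 50.1% with salt, 32.5% under submergence and 3.30% under heat. These 2 sets were formed by the heat and submergence values, so those medians are a description. The 17 came from 12 subcomponents, of which 1 supplied 5 contigs. With 1 contig per subcomponent, a choice made after the data were seen, heat was higher in 11 of 50, or 22%, and lower in 9, or 18%.

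**Figure D3:**
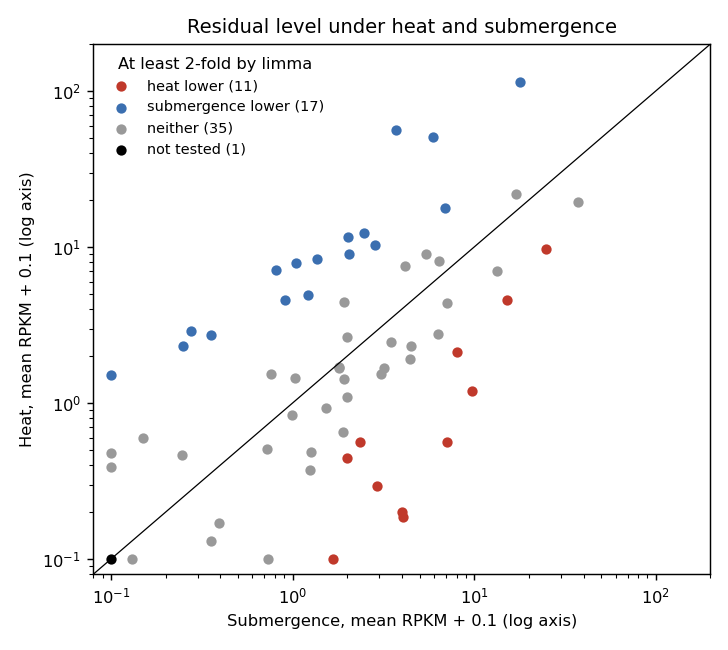
Each point is 1 member, placed by its mean RPKM + 0.1 under submergence (horizontal, log axis) and under heat (vertical, log axis); the line marks equal levels and colours give the limma call at 2-fold. The 17 contigs lower under submergence lie above the line and the 11 lower under heat lie below it, with 35 called in neither direction and 1 not tested.

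The 64 contigs came from 51 subcomponents, and 21 of them shared a subcomponent with another member. In all, 39 of 64, or 60.9%, had at least 1 other contig of their subcomponent in the file, against 49.2% of all contigs. Such sister contigs are usually read as isoforms, alleles or close copies of one gene. Bermudagrass is polyploid, so near-identical gene copies are to be found in its assemblies, and counting may split reads between them. In 22 of the 51 subcomponents the file held sister contigs that were not members, 74 in all, of which 73 were tested.

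Sister contigs were often lower under stress, but they are not independent of the rule. Their subcomponents were taken for holding a member, and they are the contigs there that missed the rule, some narrowly. For example, 1 of them changed by -0.69 under drought, -0.83 with salt, -2.13 under submergence and -0.74 under heat. The shares of all contigs are therefore printed as background only. Under drought 24 of 73, from 14 subcomponents, were called lower, or 32.9%, against 8.04% of all contigs tested. Under salt it was 11, or 15.1%, against 0.32% of all, and these came from only 3 subcomponents. Under submergence it was 25 from 12 subcomponents, or 34.2%, against 16% of all. Under heat it was 37 from 17 subcomponents, or 50.7%, against 15.8% of all. Of the 73, 44 were called lower under at least 1 stress and 13 were called in neither direction under any. The 73 fall in few subcomponents and may share reads with the members, so they are not 73 separate observations.

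Some sister contigs were called higher under a stress in which the member beside them was low. In 7 of the 22 subcomponents, 21 sister contigs were called higher under at least 1 stress, and 5 of these were also called lower under another. They numbered 10 under drought, or 13.7% against 7.1% of all contigs tested, and these came from only 3 subcomponents. Under submergence it was 14 from 5 subcomponents, or 19.2% against 16.5%. Under heat it was 11 from 5 subcomponents, or 15.1% against 12.2%. Limma called none higher under salt, where 1.36% of all contigs were, and 3 were higher there at an unadjusted p under 0.05. The shares for submergence and heat were close to those of all contigs, and the share for drought rested on 3 subcomponents.

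The subcomponent with most members held 5 of them and 4 sister contigs. On the rule's scale, the 5 members changed by -1.63 to -1.02 under drought, -1.34 to -0.74 under salt, -3.39 to -2.51 under submergence and -1.19 to -0.83 under heat. All 5 were called higher under heat than under submergence. The summed level of the 5 was 28.6 RPKM under drought, 38.3 with salt, 5.03 under submergence and 37.3 under heat, against 80.7 RPKM in the control. The 4 sister contigs summed to 9.69 RPKM under drought, 20.5 with salt, 48.1 under submergence and 10.4 under heat, against 20.025 RPKM in the control. Under submergence 2 of the 4 were called higher and 2 lower.

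Another subcomponent held 1 member and 6 sister contigs, which lay on opposite sides of the control under submergence. The member had 6.39 and 5.99 RPKM under drought, 14.6 and 15.3 RPKM under salt, 2.28 and 2.49 RPKM under submergence and 12.7 and 11.5 RPKM under heat, against 28.9 and 27.95 RPKM in the control. All 6 sister contigs were called lower under drought and heat and 5 of them under salt. Under submergence their log2 changes ran from 1.13 to 1.56 on the rule's scale, and 3 were called higher. Their summed level was 11.3 RPKM under drought, 65.1 with salt, 325.5 under submergence and 15.4 under heat, against 137 RPKM in the control. The difference in change between the member and its sister contigs was not tested.

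In a further subcomponent, holding 4 members and 7 sister contigs, the members changed by -3.90 to -2.16 under drought, -1.47 to -0.77 under salt, -2.72 to -1.36 under submergence and -4.69 to -1.45 under heat. Among the 7 sister contigs, 1 did not reach 1 RPKM in 2 libraries and was not tested. Of the others, 4 were called lower under drought, 3 under salt and 4 under heat, while 2 were called higher under submergence and 2 under heat. One more held 1 member and 8 sister contigs. That member had 0 RPKM in both drought libraries, 1.35 and 0.79 RPKM under salt, 2.92 and 0.69 RPKM under submergence and 0.29 and 0.82 RPKM under heat, against 3.22 and 7.57 RPKM in the control. Its replicates differed more than 2-fold under submergence, under heat and in the control. Of its 8 sister contigs, 4 were called higher under drought, 5 under submergence and 4 under heat.

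The third most abundant member, given above, had 4 sister contigs of still higher level. Their summed level was 1802 RPKM under drought, 1743 with salt, 80.5 under submergence and 1114 under heat, against 2294 RPKM in the control. All 4 were called lower under submergence and under heat. Their log2 changes on the rule's scale were -0.48 to -0.19 under drought and -0.47 to -0.32 under salt, short of the limit of -0.7, and 3 of the 4 were over the ceiling of 500 RPKM in the control. The member changed by -1.76 under drought and -0.80 under salt, as the rule required, and by -3.61 under submergence, where its sister contigs changed by -5.01 to -4.56. These differences between the member and its sister contigs were not tested.

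**Figure D4:**
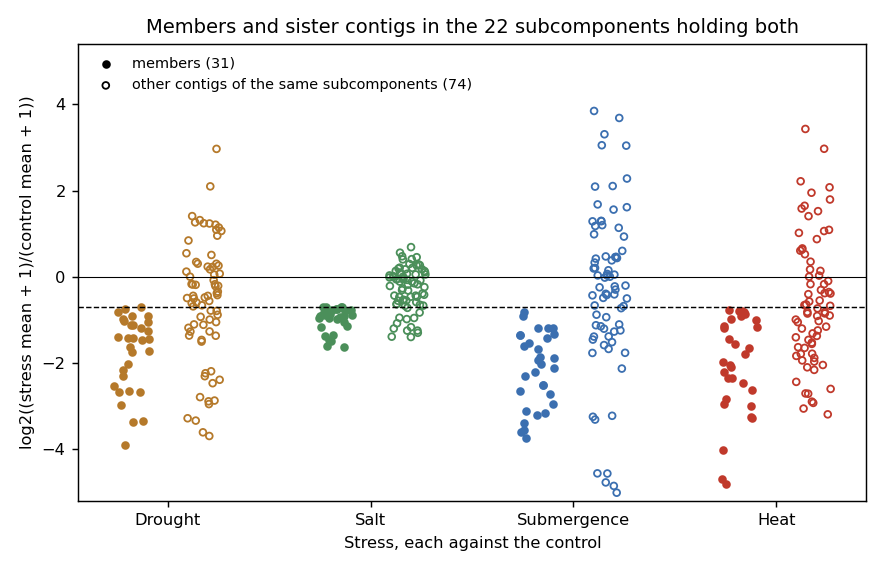
Filled points are the 31 members and open points the 74 sister contigs of the 22 subcomponents that hold both; the vertical axis is log2((stress mean + 1)/(control mean + 1)), and the dashed line marks -0.7. Members lie below the dashed line by the rule, while sister contigs range from far below it to 3.85 above 0 under submergence and are narrowly spread under salt.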

How the data were processed

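RNA from bermudagrass leaves was measured in 10 libraries, 2 for each group. Each library has 1 column, which per the file headers the authors deposited as RPKM with 2 decimals; the file's name speaks of read counts, but the values are not whole. Tools named in the submitters' processing notes, without roles, are DESeq 1.18.0, HTSeq 0.6.1, TopHat2 2.0.12 and Bowtie2 2.2.3. The assembly is not given in the sources used.

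Members were taken on the values as deposited. For tests, a contig needed 2 or more libraries at 1 RPKM or above, which kept 26884 of 28456. They were scaled by an unweighted trimmed mean of log ratios, trimming 0.3 of the ratios and 0.05 of the levels at each end, and taken to log2(RPKM + 1), which understates the change of low contigs. Limma 3.58.1 in R 4.3.3 was fitted to all 5 groups with a variance trend and 5 residual degrees of freedom, with Benjamini-Hochberg adjustment over all contigs per comparison. Python 3.11.15, pandas 2.3.3, numpy 2.4.6 and matplotlib 3.10.9 made the summaries and figures. The fit was also run on simulated data in which a small set of contigs changed, under heat alone. Changes in the real data were far more widespread, so nothing about them is read from that run. Relative depth came from the commonest ratio between low values of 2 libraries.

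The members and tests were chosen with earlier results of these data known. Identifiers are printed for 2 contigs by a rule: the highest control mean, and the smallest range of changes among members of at least 10 RPKM in the control. Other members are given by rank of control level. Those ranked 42nd and 64th, and the subcomponents described, were singled out after their values were seen. Alternatives covered scaling, pseudocount, filter, libraries in the fit, replicate block, variance trend, fold limit and leaving out each library.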

Additional observations from a re-analysis of the deposited data

How the results depend on the processing

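Membership moved most with the limit, the pseudocount and the scaling. The rule gave 130 contigs with trimmed-mean scaling, 133 with median-ratio scaling and 130 with upper-quartile scaling, each holding 63 of the 64, and 110 with a pseudocount of 0.1 RPKM. A limit of -0.5 gave 229 contigs and a limit of -1 gave 11. A pseudocount of 2 RPKM gave 45 and no ceiling 66. Leaving out 1 library gave 61 to 84.

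For the calls at other settings below, shares of all contigs were not counted, so nothing about the members is read from them. Without the fold limit, members lower than salt under drought numbered 44 and those higher 2, and those higher than salt under heat 1. Heat was then higher than drought in 16 and lower than submergence in 22, and submergence higher than drought in 13 and lower in 38. Salt against control gave 61 members. Sister contigs higher numbered 16 under drought, 3 under salt and 18 under heat, and those lower 43 under drought, 31 under salt and 38 under submergence.

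A pseudocount of 0.1 RPKM gave 6 members higher under heat than drought, 8 higher under submergence than drought and 18 lower under heat than submergence. A pseudocount of 2 RPKM gave 1, 2 and 8 in that order, and 16 for salt against control. Without scaling, salt against control gave 15 members. With 1 member per subcomponent, added after the data were seen, heat was higher than submergence in 11.

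Leaving out 1 library at a time gave 0 to 1 members higher under drought than salt and 0 to 2 sister contigs higher under salt. For comp50833_c10_seq1 the log2 difference of submergence from drought was 0.040 without scaling, against -0.12 with it, and that of heat from salt ran from -0.014 to 0.12 over these fits, negative without heat replicate 2. The cause of these moves was not tested. The replicate numbers give no stated pairing, and deviations of same-numbered libraries correlated at -0.052 to 0.12 between groups. With a replicate block, 36 sister contigs were lower under heat, against 37 without it, and the counts of members called in the 6 stress pairs were those of the fit without the block. With 2 libraries a group and unknown read totals, levels of a few RPKM carry counting error that cannot be stated.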
